A study of Sesamum indicum with 6 samples.

Results

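The genes described here carry the enzymes and transporters of sucrose, trehalose phosphate and the raffinose family of oligosaccharides in sesame (Sesamum indicum). They were chosen by name: every gene of the deposited annotated table whose product text held sucrose, trehalose, galactinol, raffinose, stachyose, invertase, beta-fructofuranosidase or SWEET, leaving out the sucrose nonfermenting kinase names. This gave 82 genes of the 20661 with a product text, all protein coding, in 13 roles. Messenger RNA was sequenced from young leaves of 17-day-old seedlings kept under 12 h light at 28/22 °C. All plants were recombinant inbred lines, homozygous either for the SiCD_B locus, which carries the mutant kan1 allele, or for the SiCD_A locus, which carries wild-type KAN1, on linkage group 8. Each group had 3 pools, each made from the RNA of 9 plants drawn at random from 19, so the pools of a group share plants and the p-values measure the spread between overlapping pools.

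Sucrose is the main sugar that leaves export. It is made from UDP-glucose and fructose 6-phosphate by sucrose-phosphate synthase and sucrose-phosphatase, cleaved by sucrose synthase and invertases, and moved across membranes by SUC proton symporters and SWEET uniporters. Trehalose 6-phosphate, made and removed by 2 small enzyme families, is a scarce signal that follows sucrose supply. Galactinol, raffinose and stachyose are built stepwise by adding galactose; they serve as protectants under cold and drought, and in some plant families they travel in the phloem beside sucrose.

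Library totals were 77087956, 82165322 and 74331695 counts in the SiCD_B pools and 73127507, 74705569 and 56123250 counts in the SiCD_A pools. Levels are given as CPM, counts per 1000000 counts of the library scaled with TMM factors; a floor of 3 counts is 0.0365 to 0.0535 CPM, depending on the pool, and covers counting error only. CPM is not adjusted for transcript length, so levels are compared between groups and not between genes. The first principal component of all genes took 60% of the variance and separated the groups, and on the second, with 14.9%, SiCD_A pool 3 stood apart. KAN1 itself (LOC105167765, linkage group 8), a KANADI transcription repressor known for its role in the lower side of the leaf, was measured at 53.8, 52.9 and 56.5 CPM in SiCD_B and at 22.2, 20.7 and 25.2 CPM in SiCD_A. Its transcript was thus higher in the group that carries the mutant allele, by 1.26 on the log2 scale (SE 0.07, adjusted p = 3.33e-05).

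Of the 80 sugar genes with enough counts to test, 12 were higher and 24 lower in SiCD_B than in SiCD_A at an adjusted p under 0.05 in edgeR's quasi-likelihood test, adjusted over 21009 genes. The 24 include LOC105176204 and LOC105160382, which met the count filter in the SiCD_A pools alone, so their calls carry no weight of their own. The called members are 45.0% of those tested, against 30.6% of all genes tested. The excess lay in the lower direction: 15.0% of the members were called higher, against 16.5% of all genes, and 30.0% were called lower, against 14.1% of all genes. The median log2 fold change, SiCD_B over SiCD_A, was -0.10 for the members and 0.01 for all genes. Of the 36 called members, 5 were higher and 13 lower by at least 1.5-fold, and the 13 include LOC105176204 and LOC105160382. Of the 6433 genes called in all, 1681 changed by at least 1.5-fold. By that rule 4.24% of all genes were higher and 3.76% lower. Among the 80 tested members, the 3 pools of each group did not overlap for 12 higher and 28 lower genes. Over the 21009 genes tested, they did not overlap for 5415 higher and 4758 lower genes. With both directions counted, the share of the members was near the 48.4% of all genes. Without SiCD_B pool 2, 6 members were called higher and 20 lower, and 3919 genes in all were called in place of 6433. With library size alone in place of TMM, 13 members were higher and 22 lower, and over all genes 4515 were higher and 2169 lower, against 3462 and 2971 with TMM. Summed over the set, the members reached 3101, 2923 and 2862 CPM in SiCD_B and 3542, 3532 and 3427 CPM in SiCD_A. In the authors' deposited table, 12 members were higher and 27 lower at an adjusted p under 0.05, 47.6% of them against 31.7% of all its genes, and the call was the same as here for 79 of the 82 genes.

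**Figure D1:**
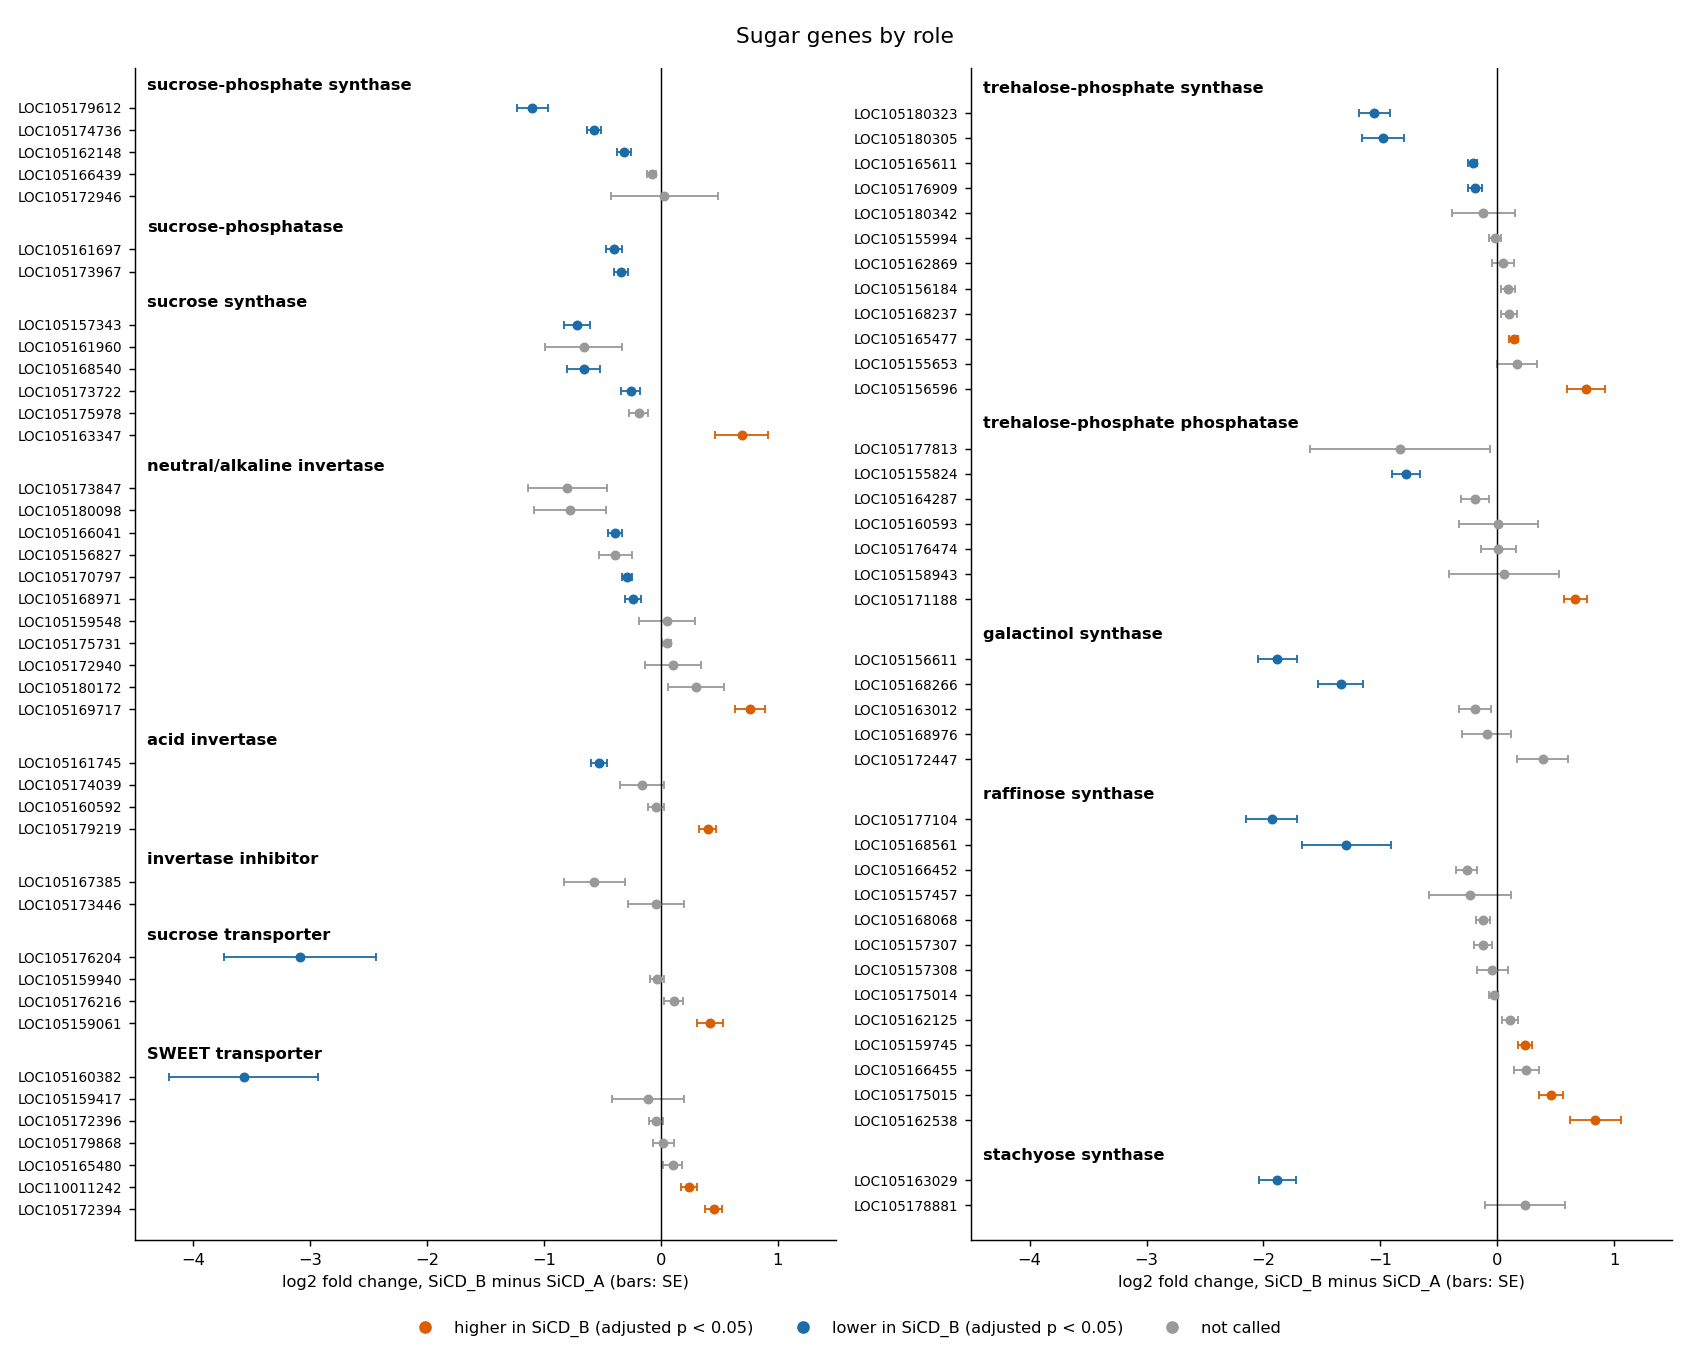
Log2 fold change, SiCD_B minus SiCD_A, of the 80 tested sugar genes by role; points are edgeR estimates, bars are standard errors, and colour gives the call at an adjusted p under 0.05. The largest negative values with short bars belong to a few galactinol, raffinose and stachyose synthase genes near -1.9, and the estimates near -3 (LOC105176204 and LOC105160382) rest on few counts and depend on the prior count.

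**Figure D2:**
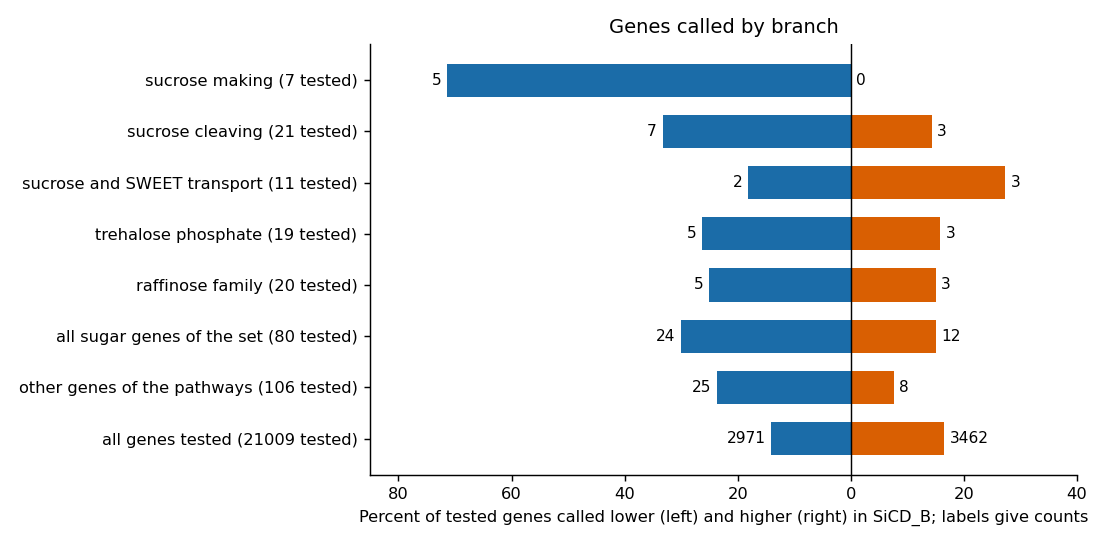
Percent of tested genes called lower (left, blue) and higher (right, orange) in SiCD_B in each branch, in the other genes of the same pathways and in all genes; the numbers beside the bars are gene counts. Sucrose making had 5 genes called lower and 0 called higher of 7 tested, while transport had 2 lower and 3 higher of 11. The 2 lower transport genes met the count filter in the SiCD_A pools alone, so their calls carry no weight of their own.

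Markers of cell types and states also moved between the groups, and in bulk leaf pools fewer cells of a type and less RNA per cell cannot be told apart. Dividing-cell markers summed to 7771 to 8384 CPM in SiCD_B and to 5413 to 6015 CPM in SiCD_A, with 68 of 112 tested called higher and 8 lower. Phloem and vascular markers summed to 298 to 340 CPM in SiCD_B and to 362 to 391 CPM in SiCD_A, with 2 of 21 called higher and 10 lower. Circadian clock markers summed to 2979 to 3251 CPM in SiCD_B and to 3454 to 3580 CPM in SiCD_A, with 0 of 23 called higher and 9 lower. These 3 lists therefore did not overlap between the groups, and their part in the sugar gene differences was not tested. Photosystem and antenna genes of green mesophyll, the defining markers of leaf, were present in all pools and overlapped, at 39491 to 45395 CPM in SiCD_B and 38730 to 54957 CPM in SiCD_A; 1 of 52 was called higher and 7 lower, but 36 were lower without SiCD_A pool 3, and 1 was lower without SiCD_B pool 2, SiCD_B pool 3, SiCD_A pool 1 or SiCD_A pool 2; with the pool number as a block 17 were lower. Senescing-leaf markers, with 0 higher and 3 lower of 8, overlapped at 290 to 344 CPM in SiCD_B and 338 to 439 CPM in SiCD_A. Root and seed storage markers, with 2 higher and 2 lower of 20, summed to no more than 16.7 CPM in SiCD_B and 20.0 CPM in SiCD_A. No listed gene was at 0 counts in all pools. Over all genes tested, 16.5% were called higher and 14.1% lower. Without SiCD_B pool 2, SiCD_B pool 3 or SiCD_A pool 1, the phloem list had 6 lower genes, the dividing-cell list 3, and the clock list 5, 5 and 4. Without SiCD_A pool 2 the dividing-cell list had 4 lower genes, and its higher count was 63 to 70 over the fits that leave out a pool. The root and seed list had 0 lower genes without SiCD_A pool 3 or any 1 SiCD_B pool and 1 without SiCD_A pool 1 or SiCD_A pool 2, and 1 higher gene without SiCD_B pool 1, SiCD_B pool 2, SiCD_A pool 1 or SiCD_A pool 2.

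The sucrose-making branch was lower in SiCD_B. Of its 7 genes, 5 were called lower (71.4%) and 0 higher, against 14.1% and 16.5% of all genes. The sum of the branch was 175 ± 9.52 CPM in SiCD_B and 223 ± 4.80 CPM in SiCD_A (SD, n = 3 pools each). Sucrose-phosphate synthase joins UDP-glucose to fructose 6-phosphate and is regarded as the controlling step of sucrose synthesis in leaves. The isoform named sucrose-phosphate synthase 2 (LOC105179612, on an unplaced scaffold) had 11.7, 7.86 and 9.64 CPM in SiCD_B, against 20.7, 19.7 and 22.4 CPM in SiCD_A. All SiCD_B pools lay well below all SiCD_A pools, with a log2 change of -1.10 (SE 0.13, adjusted p = 0.000998). Sucrose-phosphate synthase 4 (LOC105174736; linkage group 2, coding segment 119491 to 119778) had 18.0, 16.8 and 16.8 CPM in SiCD_B and 26.7, 25.4 and 24.7 CPM in SiCD_A. The pools within each group were close together, and the log2 fold change was -0.57 (SE 0.06, adjusted p = 0.000312). Of the synthase genes named isoform 1, LOC105162148 (linkage group 5, 6530485 to 6530667) had 21.2, 20.6 and 23.2 CPM in SiCD_B and 26.1, 26.4 and 28.3 CPM in SiCD_A. It was lower by a smaller margin, with a log2 change of -0.32 (SE 0.06, adjusted p = 0.00605).

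The sucrose-phosphate synthase gene with the most counts, LOC105166439 (linkage group 7, 6529615 to 6529797), had 53.3, 51.0 and 52.1 CPM in SiCD_B, against 55.3, 53.5 and 56.3 CPM in SiCD_A. Its pools did not overlap, yet the difference of -0.08 on the log2 scale did not pass the test (SE 0.04, adjusted p = 0.182). LOC105172946, also named isoform 1, was near 0.32 CPM in both groups and was not called. Both genes of sucrose-phosphatase, which removes the phosphate to release free sucrose, were lower. LOC105173967 (linkage group 11, 10876174 to 10876281) had 68.3, 59.7 and 57.0 CPM in SiCD_B and 78.6, 77.2 and 78.8 CPM in SiCD_A, for a log2 change of -0.34 (SE 0.06, adjusted p = 0.00472). LOC105161697 (linkage group 5, 2427209 to 2427268) had 13.2, 11.8 and 12.0 CPM in SiCD_B and 15.8, 16.1 and 17.1 CPM in SiCD_A, for a log2 change of -0.40 (SE 0.07, adjusted p = 0.00366). In both genes every SiCD_B pool was below every SiCD_A pool. The 5 lower calls of this branch held without each pool in turn.

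**Figure D3:**
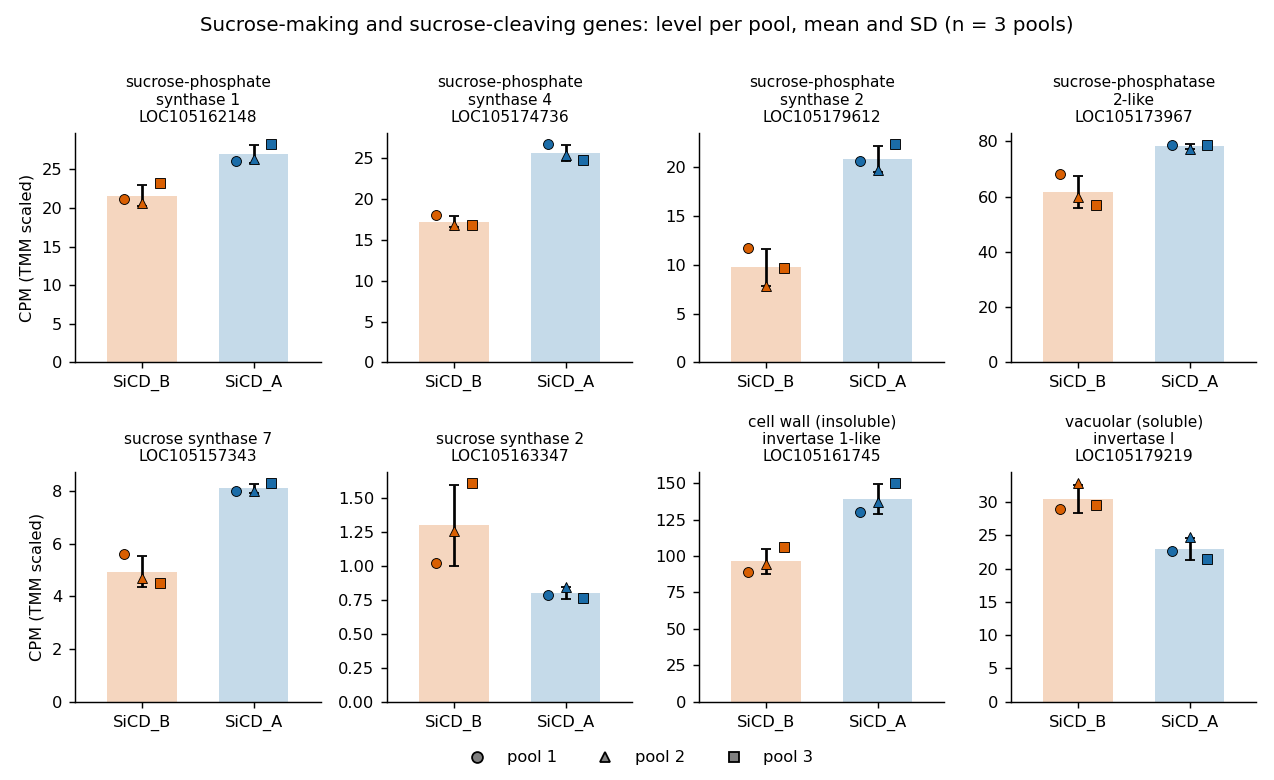
CPM per pool (points; circle, triangle and square are pools 1, 2 and 3) with the mean (bar) and SD (line) of 8 sucrose-making and sucrose-cleaving genes in SiCD_B and SiCD_A; each panel has its own axis from 0. The sucrose-phosphate synthase, phosphatase, sucrose synthase 7 and cell wall invertase panels are lower in SiCD_B, while sucrose synthase 2 and the vacuolar invertase are higher.

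Sucrose cleavage was mixed, with more genes lower than higher. Of 21 tested genes 3 were called higher (14.3%) and 7 lower (33.3%), against 16.5% and 14.1% of all genes. The sum of the branch was 569 ± 14.4 CPM in SiCD_B and 672 ± 37.0 CPM in SiCD_A. Sucrose synthase splits sucrose into UDP-glucose and fructose, often in cells that build walls or load phloem. Of its 6 genes 1 was called higher (16.7%) and 3 lower (50.0%). Sucrose synthase 7 (LOC105157343; linkage group 3, 5936784 to 5937007) had 5.59, 4.68 and 4.51 CPM in SiCD_B and 7.98, 8.01 and 8.29 CPM in SiCD_A, for a log2 change of -0.72 (SE 0.11, adjusted p = 0.00150). Its relative LOC105168540, named sucrose synthase 7-like (linkage group 8, 13939659 to 13939738), had 2.25, 1.83 and 2.06 CPM in SiCD_B and 3.35, 3.25 and 3.11 CPM in SiCD_A, for a log2 change of -0.66 (SE 0.14, adjusted p = 0.00710). Neither gene overlapped between the groups. LOC105173722, named only sucrose synthase (linkage group 11, 9612093 to 9612190), had 7.35, 7.71 and 8.53 CPM in SiCD_B and 9.26, 9.64 and 9.30 CPM in SiCD_A. Its call was narrow, at -0.26 (SE 0.08, adjusted p = 0.0462), and was lost without any pool except SiCD_B pool 3 (adjusted p = 0.0582 to 0.128).

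The one sucrose synthase called higher was sucrose synthase 2 (LOC105163347; linkage group 6, 702991 to 703012), with 1.02, 1.26 and 1.61 CPM in SiCD_B and 0.788, 0.849 and 0.763 CPM in SiCD_A. The groups did not overlap, but the level was low and the call, at 0.69 (SE 0.23, adjusted p = 0.0482), was lost in 10 of 14 alternatives, with an adjusted p of up to 0.163 without SiCD_B pool 3. A further sucrose synthase, LOC105161960, varied within groups, at 13.8, 8.07 and 18.1 CPM in SiCD_B and 23.8, 22.9 and 16.2 CPM in SiCD_A. Its log2 difference of -0.66 did not pass (SE 0.33, adjusted p = 0.196). Sucrose synthase 5 (LOC105175978) was at 17.2, 15.7 and 16.0 CPM in SiCD_B and 20.4, 16.9 and 18.4 CPM in SiCD_A, with overlapping pools and an adjusted p of 0.103.

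Neutral and alkaline invertases split sucrose inside the cytosol, plastid or mitochondrion. Of 11 tested, 1 was called higher (9.09%) and 3 lower (27.3%), against 16.5% and 14.1% of all genes. Invertase 3 (LOC105170797, chloroplastic by name; linkage group 9, 6420565 to 6421221) had 35.7, 38.3 and 37.4 CPM in SiCD_B and 46.3, 45.0 and 45.0 CPM in SiCD_A, for a log2 change of -0.29 (SE 0.04, adjusted p = 0.00187). An invertase B gene, LOC105166041 (linkage group 7, 2933598 to 2934005), had 19.0, 17.9 and 18.4 CPM in SiCD_B and 23.1, 25.4 and 24.3 CPM in SiCD_A, for a log2 change of -0.39 (SE 0.06, adjusted p = 0.00146). Pools of each group were tight in both genes. A second invertase B gene, LOC105169717 (linkage group 8, 20667818 to 20668252), went the other way, with 4.17, 4.49 and 4.63 CPM in SiCD_B and 2.76, 2.84 and 2.22 CPM in SiCD_A. Its log2 fold change was 0.76 (SE 0.13, adjusted p = 0.00345), so genes of 1 name moved in opposite directions. The third lower gene, LOC105168971 (linkage group 8, 16327053 to 16327823), is an invertase A marked in the product text as a low-quality protein model, with 18.9, 18.2 and 17.2 CPM in SiCD_B and 22.3, 20.0 and 22.0 CPM in SiCD_A. Its change of -0.24 (SE 0.07, adjusted p = 0.0225) was lost without SiCD_B pool 2, SiCD_B pool 3 or SiCD_A pool 1 (adjusted p = 0.0661, 0.0822 and 0.0745).

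The mitochondrial invertase A gene LOC105156827 (linkage group 3, 246222 to 247025) had 137, 112 and 121 CPM in SiCD_B and 140, 151 and 194 CPM in SiCD_A. Its pools did not overlap, but SiCD_A pool 3 was far above the rest of its group and the difference of -0.39 did not pass (SE 0.14, adjusted p = 0.0759). Without SiCD_A pool 1 the adjusted p was 0.0431. It was 0.00293 in the DESeq2 Wald test, 0.0417 with limma-voom and 0.148 with the pool number as a block. Whether this gene is called thus depends on the test and on the pools. The other 6 neutral invertases without a call had log2 fold changes of -0.80 to 0.30.

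Acid invertases cleave sucrose outside the cell or in the vacuole, and the 2 called genes moved in opposite directions. Of 4 tested, 1 was called higher (25.0%) and 1 lower (25.0%), against 16.5% and 14.1% of all genes. The cell wall form, LOC105161745 (insoluble isoenzyme 1-like; linkage group 5, 2774881 to 2775070), had 88.8, 94.8 and 106 CPM in SiCD_B and 130, 137 and 150 CPM in SiCD_A. Every SiCD_B pool was below every SiCD_A pool, with means of 96.5 ± 8.67 CPM in SiCD_B and 139 ± 10.2 CPM in SiCD_A and a log2 change of -0.53 (SE 0.07, adjusted p = 0.00150). The vacuolar form, LOC105179219 (soluble isoenzyme I; unplaced scaffold), had 28.9, 32.8 and 29.6 CPM in SiCD_B and 22.7, 24.8 and 21.5 CPM in SiCD_A. It was higher by 0.40 on the log2 scale (SE 0.07, adjusted p = 0.00354), again with no overlap. The remaining tested acid invertases, LOC105160592 and LOC105174039, differed by -0.04 and -0.16 on the log2 scale and were not called. LOC105174036 and LOC105164285, the 2 members with too few counts to test, were at means of 0.146 and 0.169 CPM in SiCD_B and 0.0689 and 0.0370 CPM in SiCD_A. Neither gene named putative invertase inhibitor was called, and the name alone does not fix what its product blocks. LOC105167385 (linkage group 1, 14369650 to 14370210) had 1.11, 0.850 and 1.14 CPM in SiCD_B and 2.00, 1.52 and 1.07 CPM in SiCD_A. Its adjusted p of 0.121 became 0.0319 without SiCD_A pool 3.

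Sugar transporters did not share a direction. Of 11 tested, 3 were called higher (27.3%) and 2 lower (18.2%), against 16.5% and 14.1% of all genes. Both lower genes passed the count filter in SiCD_A alone. The sum of the 11 transporters was 195 ± 4.10 CPM in SiCD_B and 180 ± 2.49 CPM in SiCD_A. SUC2 is the symporter that loads sucrose into companion cells in Arabidopsis. The sesame gene of that name, LOC105176216 (linkage group 2, 973186 to 973653), had 30.0, 24.8 and 27.1 CPM in SiCD_B and 27.1, 24.4 and 24.2 CPM in SiCD_A. Its pools overlapped and the log2 difference of 0.11 did not pass (SE 0.08, adjusted p = 0.307). SUC3 (LOC105159940) differed by -0.03 (SE 0.06, adjusted p = 0.721). SUC4 (LOC105159061; linkage group 3, 21154359 to 21154591), a vacuolar membrane transporter in Arabidopsis, had 6.03, 5.91 and 5.41 CPM in SiCD_B and 4.69, 4.12 and 4.17 CPM in SiCD_A. It was higher by 0.42 on the log2 scale (SE 0.11, adjusted p = 0.0169), and the call was lost without SiCD_B pool 2 or SiCD_A pool 2 (adjusted p = 0.0603 and 0.0636).

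Next to SUC2 in the gene order lies LOC105176204, named SUC2-like (linkage group 2, 968059 to 969297), which was barely detected, with 1, 3 and 1 counts in SiCD_B and 11, 13 and 14 counts in SiCD_A. From the counts summed over pools it was 9.0-fold higher in SiCD_A than in SiCD_B on the CPM scale, which is a description only. No SiCD_B pool reached the count filter of 0.134 CPM and all SiCD_A pools did, so the gene entered the test through the group where it is high, and no p is given. The sequences of these like-named neighbours were not compared. How any reads they share were counted is not given in the sources used here, so the split between them is uncertain.

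SWEET proteins let sugars pass down their gradient. SWEET17 (LOC105172394; linkage group 10, 12547700 to 12547733), a fructose transporter of the vacuole in Arabidopsis, had 26.7, 23.0 and 25.3 CPM in SiCD_B and 17.6, 18.3 and 19.0 CPM in SiCD_A. All SiCD_B pools were above all SiCD_A pools, with a log2 change of 0.45 (SE 0.07, adjusted p = 0.00166). Its neighbour SWEET16 (LOC105172396) differed by -0.04 and was not called (adjusted p = 0.681). SWEET2a-like (LOC110011242; linkage group 12, 4828793 to 4828859) had 28.8, 31.5 and 31.0 CPM in SiCD_B and 24.9, 24.5 and 28.1 CPM in SiCD_A. Its change was 0.24 (SE 0.07, adjusted p = 0.0244), and it was lost without SiCD_B pool 2, SiCD_B pool 3, SiCD_A pool 1 or SiCD_A pool 2 (adjusted p = 0.0908, 0.0791, 0.0870 and 0.0883). SWEET3b (LOC105160382; linkage group 4, 9284872 to 9284908) was lower in SiCD_B at very low counts, with 3, 5 and 2 counts in SiCD_B and 44, 15 and 42 counts in SiCD_A. From the counts summed over pools it was 12.0-fold higher in SiCD_A on the CPM scale, which is a description only. It too passed the count filter through the SiCD_A pools alone, and no p is given. The remaining 3 SWEET genes, among them SWEET1-like LOC105179868 with 48.0, 46.6 and 43.8 CPM in SiCD_B and 48.2, 49.4 and 38.7 CPM in SiCD_A, overlapped and were not called. Without SiCD_B pool 2 or SiCD_A pool 2 a single transporter was called higher, and with a filter of 1 CPM in 3 pools no transporter was called lower, since both lower genes fell under it.

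**Figure D4:**
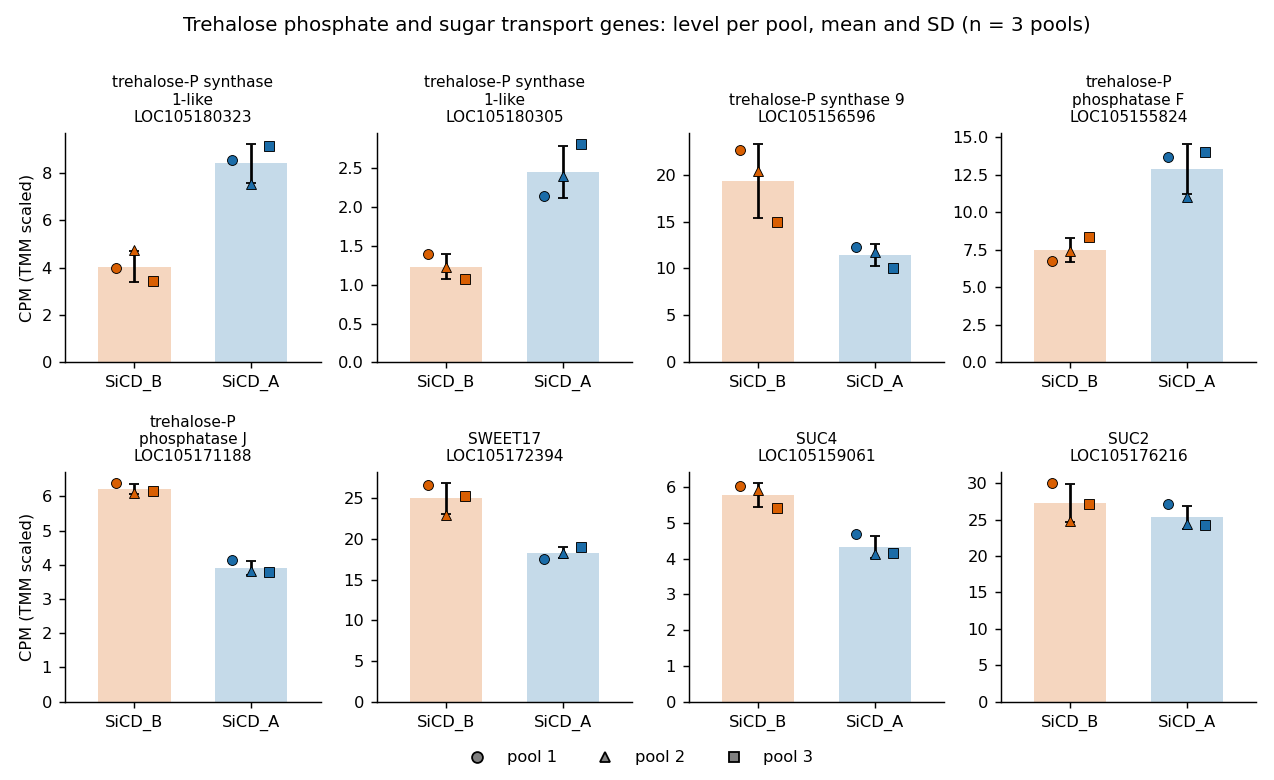
CPM per pool (points by pool number) with the mean (bar) and SD (line) of 5 trehalose phosphate genes and 3 sugar transporters in SiCD_B and SiCD_A; each panel has its own axis from 0. The trehalose-phosphate synthase 1-like genes and phosphatase F are lower in SiCD_B, synthase 9, phosphatase J, SWEET17 and SUC4 are higher, and the SUC2 pools overlap.

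The trehalose branch had calls in both directions. Of 19 tested genes 3 were called higher (15.8%) and 5 lower (26.3%), against 16.5% and 14.1% of all genes. The higher share and the median log2 fold change of 0.01 were thus near those of all genes. The sum of the branch was 888 ± 50.0 CPM in SiCD_B and 884 ± 17.5 CPM in SiCD_A. Trehalose-phosphate synthase 1 makes trehalose 6-phosphate; the class with higher isoform numbers, such as 7, 9 and 10, is mostly thought to be regulatory in Arabidopsis. Of the 2 genes named isoform 1 that are placed on linkage groups, LOC105176909 (linkage group 14, 3817154 to 3817508) had 111, 102 and 94.3 CPM in SiCD_B and 120, 115 and 117 CPM in SiCD_A. It was lower by a small margin, -0.19 (SE 0.06, adjusted p = 0.0366), and the call was lost without SiCD_B pool 2, SiCD_B pool 3, SiCD_A pool 1 or SiCD_A pool 2 (adjusted p = 0.102, 0.11, 0.102 and 0.0704). LOC105165477 (linkage group 6, 22166213 to 22166567) had 80.6, 80.6 and 79.1 CPM in SiCD_B and 72.2, 74.7 and 70.6 CPM in SiCD_A. It was higher by 0.14 (SE 0.04, adjusted p = 0.0238), but the call was lost without any pool except SiCD_A pool 2 (adjusted p = 0.0509 to 0.0887), and its span overlaps that of LOC105165479. That gene had 76130 counts over all pools, more than LOC105165477 itself, and an unstranded library cannot separate reads of the overlap, so the change of LOC105165477 is uncertain.

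Larger differences came from 1-like genes on unplaced scaffolds. LOC105180323 had 3.96, 4.73 and 3.43 CPM in SiCD_B and 8.52, 7.52 and 9.14 CPM in SiCD_A, for a log2 change of -1.05 (SE 0.13, adjusted p = 0.000810). LOC105180305 had 1.39, 1.23 and 1.07 CPM in SiCD_B and 2.14, 2.40 and 2.81 CPM in SiCD_A, for a log2 change of -0.98 (SE 0.18, adjusted p = 0.00410). In both genes every SiCD_B pool was below every SiCD_A pool, while LOC105180342, also named 1-like, differed by -0.12 (adjusted p = 0.771). How counts divide among these like-named genes and the placed isoform 1 genes is uncertain.

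Among the isoforms of the other class, synthase 9 (LOC105156596; linkage group 2, 17662530 to 17664514) had 22.6, 20.4 and 14.9 CPM in SiCD_B and 12.3, 11.8 and 10.1 CPM in SiCD_A. It was the most increased, with a log2 change of 0.76 (SE 0.16, adjusted p = 0.0108). Synthase 7 (LOC105165611; linkage group 6, 23335259 to 23337246) was slightly lower, with 96.6, 102 and 93.7 CPM in SiCD_B and 113, 111 and 113 CPM in SiCD_A (log2 fold change -0.21, SE 0.04, adjusted p = 0.00789). Synthase 10 (LOC105168237; linkage group 8, 10877748 to 10879732) overlapped between the groups, with 313, 320 and 270 CPM in SiCD_B and 293, 289 and 260 CPM in SiCD_A (adjusted p = 0.331). Isoforms 5, 6 and both genes named 11 had log2 fold changes of -0.02 to 0.17 and were not called.

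Trehalose-phosphate phosphatases remove the signal, and the 2 called genes of 7 moved in opposite directions. The called share was 28.6%, near the 30.6% of all genes. Phosphatase F (LOC105155824; linkage group 2, 11442796 to 11443089) had 6.73, 7.43 and 8.32 CPM in SiCD_B and 13.7, 11 and 14 CPM in SiCD_A, for a log2 change of -0.78 (SE 0.12, adjusted p = 0.00158). Phosphatase J (LOC105171188; linkage group 9, 9416478 to 9416732) had 6.38, 6.10 and 6.16 CPM in SiCD_B and 4.15, 3.81 and 3.78 CPM in SiCD_A, for a log2 change of 0.67 (SE 0.10, adjusted p = 0.00148). Neither overlapped between the groups. A second gene of each name, LOC105164287 (F) and LOC105176474 (J), differed by -0.19 and 0.01 and was not called. Phosphatase A-like (LOC105160593; linkage group 4, 10859131 to 10859421) varied widely within both groups, at 20.8, 40.2 and 38.9 CPM in SiCD_B and 29.7, 25.5 and 44.1 CPM in SiCD_A, and showed no difference that passed (log2 fold change 0.01, SE 0.34, adjusted p = 0.979).

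Among members with a mean of at least 1 CPM, the largest differences were in the raffinose family. They lay in at least 1 gene of each step from galactinol to stachyose, but not in every gene of a step. At the raffinose synthase step, 3 of 13 genes were called higher and 2 lower. The 20 genes of the whole family summed to 1132 ± 81.6 CPM in SiCD_B and 1539 ± 86.4 CPM in SiCD_A. Of these genes 3 were called higher (15.0%) and 5 lower (25.0%), against 16.5% and 14.1% of all genes. Galactinol synthase makes the galactose donor from UDP-galactose and inositol. Galactinol synthase 1 (LOC105168266; linkage group 8, 11166528 to 11166854) had 76.6, 46.9 and 61.2 CPM in SiCD_B, against 169, 158 and 141 CPM in SiCD_A. All SiCD_B pools lay far below all SiCD_A pools, and the gene was 2.54-fold lower (log2 fold change -1.34, SE 0.19, adjusted p = 0.00544). Galactinol synthase 1-like (LOC105156611; linkage group 2, 17751241 to 17751585) had 28.6, 19.5 and 24.4 CPM in SiCD_B, against 91.1, 99.7 and 75.9 CPM in SiCD_A. It was 3.68-fold lower (log2 fold change -1.88, SE 0.17, adjusted p = 0.000942), with group means of 24.2 ± 4.56 CPM in SiCD_B and 88.9 ± 12.1 CPM in SiCD_A. The other 3 galactinol synthase genes were low, at 1.23 to 2.84 CPM on average in either group, and differed by -0.19, 0.39 and -0.09 on the log2 scale with no call.

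Raffinose synthase (galactinol-sucrose galactosyltransferase) moves galactose from galactinol to sucrose. LOC105177104, the gene of that name without an isoform number (linkage group 15, 131961 to 133205), had 23.5, 13.6 and 16.2 CPM in SiCD_B, against 66.3, 76.0 and 60.8 CPM in SiCD_A. It was 3.82-fold lower (log2 fold change -1.93, SE 0.22, adjusted p = 0.00303), the lowest fold change among members with a mean of at least 1 CPM. Stachyose synthase adds a second galactose to raffinose. Its main gene, LOC105163029 (linkage group 6, 316463 to 317941), had 91.0, 59.2 and 77.0 CPM in SiCD_B, against 279, 296 and 260 CPM in SiCD_A. All SiCD_B pools were far below all SiCD_A pools, and the gene was 3.68-fold lower (log2 fold change -1.88, SE 0.16, adjusted p = 0.000742). The other stachyose synthase, LOC105178881, was low and not called (log2 fold change 0.24, SE 0.34, adjusted p = 0.637). These 4 strongly lower genes lie on linkage groups 8, 2, 15 and 6, and none lost its call in any of 14 alternatives.

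**Figure D5:**
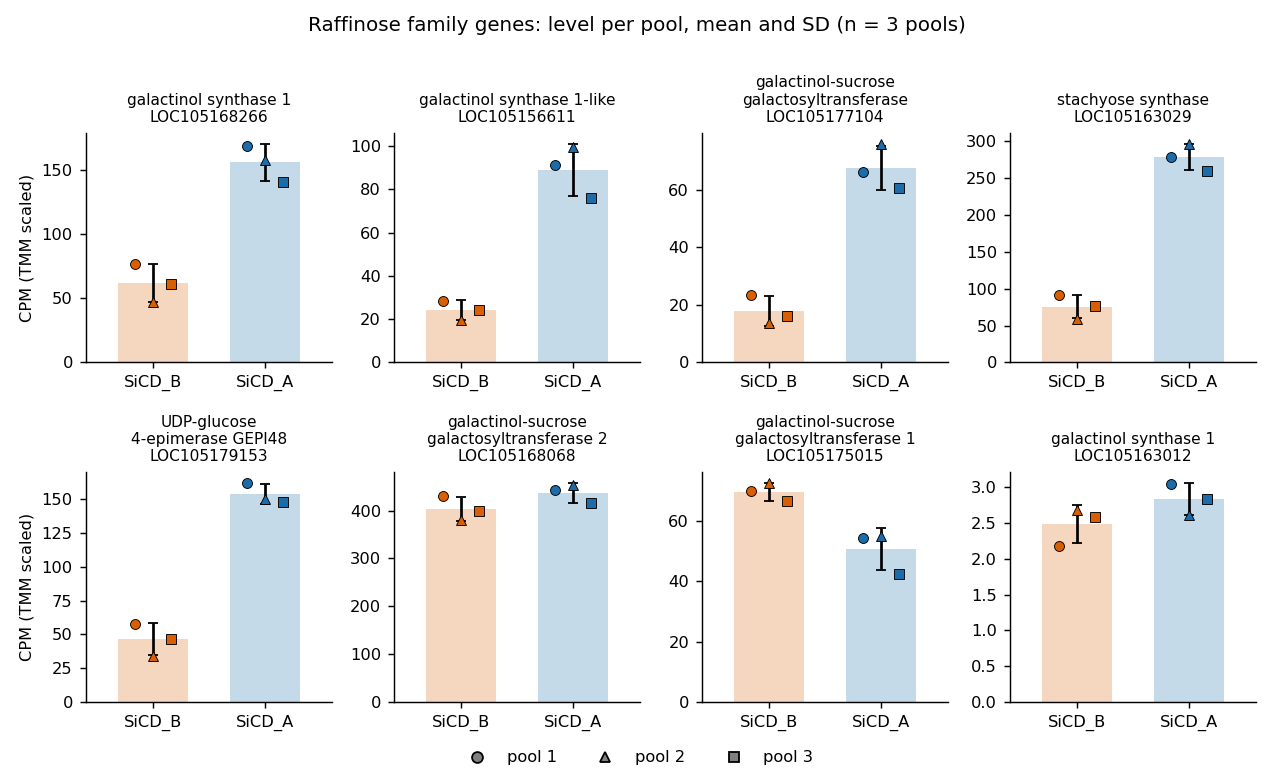
CPM per pool (points by pool number) with the mean (bar) and SD (line) of 7 raffinose family genes and 1 UDP-glucose 4-epimerase gene in SiCD_B and SiCD_A; each panel has its own axis from 0. The 5 panels from galactinol synthase 1 to the epimerase show all SiCD_B pools below all SiCD_A pools, LOC105175015 is higher in SiCD_B, and the pools of LOC105168068 and LOC105163012 overlap.

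The raffinose synthase genes did not move as one. Of 13 genes, 3 were called higher (23.1%) and 2 lower (15.4%), against 16.5% and 14.1% of all genes. The sum of the role overlapped between the groups, at 1024, 950 and 918 CPM in SiCD_B and 1041, 1030 and 955 CPM in SiCD_A. Its most counted gene, galactosyltransferase 2 LOC105168068 (linkage group 8, 9189292 to 9189599), had 431, 380 and 399 CPM in SiCD_B and 443, 454 and 415 CPM in SiCD_A, and was not called (log2 fold change -0.12, SE 0.06, adjusted p = 0.170). Some genes named galactosyltransferase with a number are alkaline alpha-galactosidases or of unproven activity in other plants, so the name alone does not fix the reaction. Galactosyltransferase 1 LOC105175015 (linkage group 12, 1717907 to 1718097) had 69.9, 72.6 and 66.8 CPM in SiCD_B and 54.4, 55.2 and 42.6 CPM in SiCD_A, and was higher by 0.46 (SE 0.10, adjusted p = 0.0109). Its direct neighbour of the same name, LOC105175014, differed by -0.03 and was not called (adjusted p = 0.632).

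The other calls of this role were weaker. LOC105159745 (galactosyltransferase 2; linkage group 4, 940755 to 940945) had 150, 142 and 131 CPM in SiCD_B and 128, 118 and 113 CPM in SiCD_A, for a log2 change of 0.24 (SE 0.06, adjusted p = 0.0211). Its call was lost without SiCD_B pool 1, SiCD_B pool 2, SiCD_A pool 2 or SiCD_A pool 3 (adjusted p = 0.0565, 0.0711, 0.0753 and 0.0503). LOC105162538 (galactosyltransferase 2; linkage group 5, 13038353 to 13038543) had 11.4, 14.7 and 8.56 CPM in SiCD_B and 6.81, 7.42 and 5.04 CPM in SiCD_A, for a log2 change of 0.84 (SE 0.22, adjusted p = 0.0297). It too was lost, without SiCD_B pool 1, SiCD_B pool 2, SiCD_A pool 1 or SiCD_A pool 3 (adjusted p = 0.0677, 0.0608, 0.0793 and 0.0773). LOC105168561 (galactosyltransferase 2; linkage group 8, 14114358 to 14114536) had 2.57, 1.39 and 0.786 CPM in SiCD_B and 3.55, 4.25 and 3.82 CPM in SiCD_A, for a log2 change of -1.29 (SE 0.38, adjusted p = 0.0397). The SiCD_B pools were spread more widely than the SiCD_A pools, and the call was lost without SiCD_B pool 2 or any 1 SiCD_A pool (adjusted p = 0.0860 to 0.135). Without SiCD_B pool 1, SiCD_B pool 2 or SiCD_A pool 3 the raffinose family had 1 gene called higher in place of 3.

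The 4 strongly lower genes shared their order among the SiCD_B pools, with pool 1 highest and pool 2 lowest. That order was common: 9 of the 24 members called lower had it (37.5%), and so did 998 of the 2971 genes called lower overall (33.6%). Of the 82 members, 8 are on linkage group 8, where the selected locus lies, and of these 1 was called higher and 4 lower. Over all tested genes of that linkage group, 14.6% were called higher and 13.9% lower. The spans of the called genes LOC105174736, LOC105157343, LOC105161745, LOC105160382 and LOC105168266 each overlap that of another gene, with 12, 525, 4411, 20 and 56 counts for the overlapping genes over all pools, and reads of such partners cannot be told apart by strand.

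Other genes of the same pathways, listed by product name, leaned the same way. Of 106 tested, 8 were called higher (7.55%) and 25 lower (23.6%), against 16.5% and 14.1% of all genes. In both directions together 31.1% were called, near the 30.6% of all genes. The median log2 fold change of the 106 was -0.11. Without SiCD_B pool 1 or SiCD_B pool 2 the higher count was 5 and 4. UDP-glucose and UDP-galactose supply had 0 of 13 genes higher and 6 lower (46.2%). UTP-glucose-1-phosphate uridylyltransferase (LOC105179334), which makes UDP-glucose, had 135, 123 and 133 CPM in SiCD_B and 201, 193 and 194 CPM in SiCD_A, with no overlap (log2 fold change -0.59, SE 0.05, adjusted p = 0.000133). The plastid phosphoglucomutase LOC105179246, which interconverts glucose phosphates, had 160, 155 and 151 CPM in SiCD_B and 225, 219 and 209 CPM in SiCD_A (log2 fold change -0.49, SE 0.04, adjusted p = 0.000217). That gene is counted among the 6 by its product name, and whether a plastid enzyme serves UDP-glucose supply here was not tested. A pair of genes was picked from these lists after their values were seen. UDP-glucose 4-epimerase GEPI48 (LOC105179153), an enzyme that makes the UDP-galactose used by galactinol synthase, had 57.6, 34.1 and 46.8 CPM in SiCD_B and 162, 150 and 148 CPM in SiCD_A. Its change of -1.73 (SE 0.19, adjusted p = 0.00262) lay between those of galactinol synthase 1 and galactinol synthase 1-like, while the other gene named GEPI48, LOC105159167, differed by 0.03 (adjusted p = 0.766). Cytosolic fructose-1,6-bisphosphatase (LOC105179554), which feeds sucrose synthesis, had 95.7, 73.0 and 81.5 CPM in SiCD_B and 127, 124 and 120 CPM in SiCD_A (log2 fold change -0.57, SE 0.09, adjusted p = 0.00339).

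Hexose, polyol and inositol transporters had 2 genes higher (5.13%) and 11 lower (28.2%) of 39, against 16.5% and 14.1% of all genes. ERD6-like 7 (LOC105163214), of a family that moves sugars out of the vacuole in Arabidopsis, had 36.7, 30.5 and 34.8 CPM in SiCD_B and 69.1, 61.4 and 74.9 CPM in SiCD_A. The groups did not overlap, and the log2 fold change was -1.01 (SE 0.09, adjusted p = 0.000287). The hexose carrier HEX6-like (LOC105160641) was lower at -1.36 (SE 0.19, adjusted p = 0.00134), and the sugar carrier STP8-like (LOC105171361) was higher at 0.97 (SE 0.25, adjusted p = 0.0185). Without SiCD_B pool 2, SiCD_B pool 3 or SiCD_A pool 1 the lower count was 7, 5 and 6, and without SiCD_B pool 2 the higher count was 0. The STP8-like call was lost without SiCD_B pool 2 or SiCD_A pool 1 (adjusted p = 0.0716 and 0.0519). Inositol transporter 4-like (LOC105178845), which carries inositol, was higher at 0.66 (SE 0.19, adjusted p = 0.0280), a call lost without SiCD_B pool 2, SiCD_B pool 3, SiCD_A pool 2 or SiCD_A pool 3 (adjusted p = 0.0787, 0.0897, 0.0955 and 0.0559).

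Hexokinases and fructokinases take up the hexoses released by cleavage, and phosphofructokinases act on fructose 6-phosphate. Of 23 tested genes with these names, 1 was called higher (4.35%) and 6 lower (26.1%), against 16.5% and 14.1% of all genes. Fructokinase-6 (LOC105177887) had 83.0, 90.4 and 82.9 CPM in SiCD_B and 72.1, 73.1 and 72.3 CPM in SiCD_A (log2 fold change 0.24, SE 0.05, adjusted p = 0.00516). Fructokinase-like 2 (LOC105160117), a plastid protein whose Arabidopsis relative acts in chloroplast gene expression and not in sugar phosphorylation, was lower, with 162, 159 and 149 CPM in SiCD_B and 183, 193 and 202 CPM in SiCD_A (log2 fold change -0.30, SE 0.05, adjusted p = 0.00304). Phosphofructokinase 6 (LOC105162025), which commits fructose 6-phosphate to glycolysis, had 0.968, 0.778 and 0.577 CPM in SiCD_B and 2.24, 1.90 and 1.88 CPM in SiCD_A (log2 fold change -1.37, SE 0.22, adjusted p = 0.00236). SnRK1 is the kinase complex that is restrained by trehalose 6-phosphate. Of its 16 tested subunit genes, 3 were called higher (18.8%) and 0 lower, against 16.5% and 14.1% of all genes. The higher share was thus near that of all genes. The catalytic subunit KIN10 of SnRK1 (LOC105157951) had 79.0, 75.8 and 74.5 CPM in SiCD_B and 62.3, 62.8 and 59.2 CPM in SiCD_A (log2 fold change 0.32, SE 0.04, adjusted p = 0.00114). The regulatory subunit beta-3 (LOC105170738) had 13.9, 15.2 and 15.4 CPM in SiCD_B and 10.5, 12.1 and 11.5 CPM in SiCD_A (log2 fold change 0.38, SE 0.08, adjusted p = 0.00688). Neither SnRK1 gene overlapped between the groups.

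The enzymes that break the end products down had 1 gene higher and 1 lower of 7. The called share was 28.6%, against 30.6% of all genes. Trehalase (LOC105164499), which splits trehalose, had 26.3, 22.7 and 24.7 CPM in SiCD_B and 22.7, 18.5 and 19.1 CPM in SiCD_A. The change of 0.29 (SE 0.09, adjusted p = 0.0362) was lost without SiCD_B pool 1, SiCD_B pool 3, SiCD_A pool 2 or SiCD_A pool 3 (adjusted p = 0.0999, 0.0944, 0.126 and 0.0908). Alpha-galactosidase 3-like (LOC105160805), of the family that removes galactose from raffinose sugars, had 6.83, 6.40 and 6.12 CPM in SiCD_B and 8.63, 8.86 and 9.32 CPM in SiCD_A (log2 fold change -0.47, SE 0.09, adjusted p = 0.00403). Inositol supply, which galactinol synthase also needs, had 1 gene higher and 1 lower of 8, or 25.0% called. The higher gene, named after its values were seen, was an inositol oxygenase 1-like (LOC105162022), an enzyme that breaks inositol down, at 0.968, 0.874 and 0.943 CPM in SiCD_B and 0.535, 0.548 and 0.284 CPM in SiCD_A (log2 fold change 1.01, SE 0.29, adjusted p = 0.0275). No gene of the list was called higher without any 1 SiCD_B pool, SiCD_A pool 1 or SiCD_A pool 3, or with the filter of 1 CPM in 3 pools. Inositol monophosphatase 3 (LOC105175262) was lower, with a log2 difference of -0.18 (SE 0.05, adjusted p = 0.0304), a call lost without SiCD_B pool 2, SiCD_B pool 3, SiCD_A pool 1 or SiCD_A pool 2 (adjusted p = 0.109, 0.0504, 0.10 and 0.0883).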

How the data were processed

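Leaf mRNA of 6 pools was made into TruSeq v2 libraries, a kit that does not mark strand, and read as paired 100-base reads, per the labels' protocols. The deposited count table holds whole-number counts per gene for 25762 genes; the tools listed in the submitters' processing notes are STAR and HTSeq, SAMtools, Trim Galore, DESeq2 and FastQC 0.11.4, and the genome build is not given in the sources used here. A further deposited table gives the authors' log2 fold changes and adjusted p-values for 20661 genes with product text and coding positions; linkage groups come from the RefSeq gene table (S_indicum_v1.0) by gene ID, in which every coding segment fell inside its gene's span. Coordinates are a coding segment of the gene as deposited.

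The test was edgeR's (version 4.0.16, R 4.3.3; TMM factors, filterByExpr, robust quasi-likelihood fit, SiCD_B minus SiCD_A, Benjamini-Hochberg over 21009 genes, threshold 0.05). The steps were tested on simulated data. Alternatives used limma 3.58.1 (voom), DESeq2 1.42.0, other scalings and filters, the pool number as a block, and each pool left out. Genes were named where a member was called with a mean of at least 1 CPM, where it had the highest mean of its role, or, in a pathway list, where it had one of the 2 smallest p-values in a direction. SUC2-like, SWEET3b, an inositol oxygenase and members without a call that are neither are named after their values were seen. The members and lists were chosen with earlier results of these data known.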

Additional observations from a re-analysis of the deposited data

How the results depend on the processing

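Of the 36 called members, 24 kept their call in all 14 alternatives of scaling, filter, test, block and pools. Another 10 lost it in at least 1, and LOC105176204 and LOC105160382 were not tested under the filter of 1 CPM in 3 pools. Of 16 called pathway genes run singly, 12 kept their call. The inositol oxygenase LOC105162022 was not among these 16. The members called higher numbered 11 to 13 under other scalings, filters and tests, and those called lower 22 to 27; leaving out 1 pool gave 6 to 10 higher and 20 to 25 lower members, 4 to 7 higher and 17 to 29 lower pathway genes, a median of -0.13 to -0.08, and 3919 to 5998 genes called in all. Most members' calls were lost without SiCD_B pool 2 (10) and fewest without SiCD_B pool 1 (4). A limit of 1.5-fold left 5 higher and 13 lower members, 3 higher and 11 lower pathway genes and 1681 genes in all. Library size alone raised the share of higher calls over all genes to 67.5%, against 53.8% with TMM, and the median log2 fold change of all genes was 0.05, 0.01 with TMM. Pools of the same number had correlations of deviations of 0.0701, 0.00909 and 0.0565. Pools of unlike number had correlations of -0.0784 to 0.00446. All were small, and they do not settle whether the pool numbers pair the samples. With the pool number as a replicate block 13 members were higher and 27 lower, 9 and 30 pathway genes, and 7181 genes in all. Of the 61 genes run singly under the alternatives, the direction turned in 2, neither of them called: LOC105160593 was at -0.01 with the block and at -0.15 to 0.27 over the fits that leave out a pool (-0.14 without SiCD_B pool 2, -0.11 without SiCD_B pool 3, -0.06 without SiCD_A pool 1), and LOC105179868 at -0.09 to 0.08 (-0.01 without SiCD_B pool 1); the cause was not tested. A choice of members by RefSeq description was not run. Precision is limited by the 3 pools a group, which share plants, and, for LOC105176204 and LOC105160382, by counts.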
